A study of Mus musculus with 9 samples.

Results

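The autophagy machinery genes are 37 genes whose products start, build, load and deliver the autophagosome, the double membrane that carries cell contents to the lysosome. They were picked by gene symbol from the 56748 Ensembl identifiers of the deposited expression table. All 37 were present, and all 37 were among the 14431 genes that passed the filter on low values. Values are FPKM, read numbers scaled to exon length and library size, and group values are means ± SD over 3 libraries. Exon length here is that of all annotated exons of a gene together, so comparisons of level between genes depend on the annotation. The genes fall into 5 of initiation, 6 of nucleation, 5 of membrane supply and expansion, 8 of conjugation, 5 LC3-type proteins, 5 cargo receptors and 3 of fusion with the lysosome.

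Granulosa cells, which line the ovarian follicle and feed the oocyte, came from wild-type female C57BL/6 mice in 3 groups with 3 libraries each. CTX_HCQ mice received an injection of cyclophosphamide at 120 mg per kg and oral hydroxychloroquine at 40 mg per kg per day, started 7 days before the injection and kept up for 4 weeks after it. CTX mice received cyclophosphamide alone. Control mice received neither drug and are called untreated in the labels and vehicle-treated in the design text. All mice carried the wild-type genotype, with no transgene or deletion named. Whether a library is 1 mouse or a pool is not given, and p-values cover the variation among libraries alone, part of which may be technical.

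Autophagy begins when the kinases Ulk1 and Ulk2 are released from the nutrient sensor mTORC1, and a lipid kinase built around Pik3c3 and Becn1 then marks the growing membrane. Ubiquitin-like conjugation attaches LC3-type proteins to that membrane, where cargo receptors such as Sqstm1 (p62) bind them and are degraded with their load. Cyclophosphamide is an alkylating drug that depletes ovarian follicles, and autophagy has been studied in granulosa cells of follicles that degenerate. Hydroxychloroquine collects in lysosomes and impairs degradation of what autophagosomes deliver there. These libraries measured RNA, so neither protein levels nor autophagic flux were read.

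Reads recovered from the FPKM ran from 13529098 in CTX_HCQ 3 to 17307063 in Control 2, and the library size by which the FPKM had been scaled, as implied by the values, ran from 15344567 in CTX_HCQ 3 to 17943320 in Control 2. Summed levels of 10 granulosa markers were 5121 to 5963 FPKM in CTX_HCQ, 4943 to 7214 FPKM in CTX and 4236 to 6387 FPKM in Control, so the labelled cell type was present in every library. Markers of oviduct and ciliated cells summed to 15.5 to 25.6 FPKM in CTX_HCQ, 86.9 to 413 FPKM in CTX and 7.24 to 91.5 FPKM in Control, with the highest value in CTX 3. Theca and steroid markers summed to 2427 to 5452 FPKM in CTX_HCQ, 5492 to 7492 FPKM in CTX and 3256 to 5853 FPKM in Control. Most of these sums was Hsd3b1 (1851 to 5655 FPKM) and Cyp11a1 (479 to 1670 FPKM), and Insl3 did not pass the filter. Cyp17a1 had 0.958, 24.2 and 45.4 FPKM in CTX_HCQ, 7.06, 24.7 and 7.65 FPKM in CTX and 16.6, 0.584 and 0.986 FPKM in Control. Its highest value was in CTX_HCQ 3, the library with the lowest sum. Erythroid markers summed to 293 to 860.4 FPKM in CTX_HCQ, 341 to 569 FPKM in CTX and 471 to 3309.6 FPKM in Control. Macrophage markers summed to 56.3 to 104 FPKM in CTX_HCQ, 80.03 to 95.1 FPKM in CTX and 60.04 to 90.9 FPKM in Control, although Ptprc of that list was below 1 FPKM in all 9 libraries. Smooth muscle markers, of which Tagln was below 1 FPKM throughout, summed to 48.2 to 167 FPKM in CTX_HCQ, 77.3 to 111 FPKM in CTX and 40.2 to 124 FPKM in Control. Adipocyte markers, of which Lep was below 1 FPKM throughout, summed to 5.69 to 14.1 FPKM in CTX_HCQ, 4.57 to 20.6 FPKM in CTX and 8.31 to 11.5 FPKM in Control. Stroma markers summed to 112.26 to 248.06 FPKM in CTX_HCQ, 116.75 to 149.96 FPKM in CTX and 188.34 to 214.95 FPKM in Control. All CTX libraries lay below all Control libraries in stroma. In CTX_HCQ, CTX and Control in turn, luteal markers summed to 126.64 to 174.97, 148.94 to 431.75 and 124.63 to 366.93 FPKM. Endothelial markers gave 19.7 to 47.9, 30.16 to 57.4 and 17.996 to 47.8 FPKM. Oocyte markers gave 137.36 to 213.3, 149.02 to 211.65 and 145.27 to 229.7 FPKM. The part of these other cells in the values of the autophagy genes was not tested. Mitochondrially encoded genes took 28.9% of all FPKM in CTX 3 and 11.7% to 17.5% in the others. The libraries also differed by gene length. The median deviation of genes under 1500 bases minus that of genes over 4000 bases, on the log2(FPKM + 1) scale, was -0.16, 0.32 and -0.40 in CTX_HCQ 1, 2 and 3, 0.23, -0.027 and 0.37 in CTX 1, 2 and 3, and -0.047, -0.18 and -0.098 in Control 1, 2 and 3.

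The levels of the machinery spanned from 3.50 FPKM for Rb1cc1 to 148 FPKM for Sqstm1 as means over 9 libraries. Sqstm1, the p62 receptor, stood above Map1lc3a (116 FPKM) in 9 of 9 libraries, and Map1lc3a above Gabarap (84.2 FPKM) in 9 of 9. Gabarap exceeded the late endosomal GTPase gene Rab7 (74.1 FPKM) in 7 of 9 libraries, so this pair of neighbours did not separate in every library, while Rab7 exceeded Gabarapl1 (52.3 FPKM) in 9 of 9. These 5 genes lay at or above the percentile 94.1 of all tested genes by mean level. Below them came Atg101 (25.2 FPKM) and Nbr1 (24.7 FPKM), which changed places between libraries, Atg101 being higher in 5 of 9. Of the upstream steps, to which Atg101 also belongs, Ulk1 stood at 13.7 FPKM, Becn1 at 8.55 FPKM and Atg7 at 4.48 FPKM. The exons of Ulk1, Becn1 and Atg7 total 6488, 7065 and 6968 bases, against 1181 for Map1lc3a, and FPKM divides by that length. From Atg101 down to Rb1cc1, only Optn above Atg7 held its place to the next gene in 9 of 9 libraries.

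**Figure D1:**
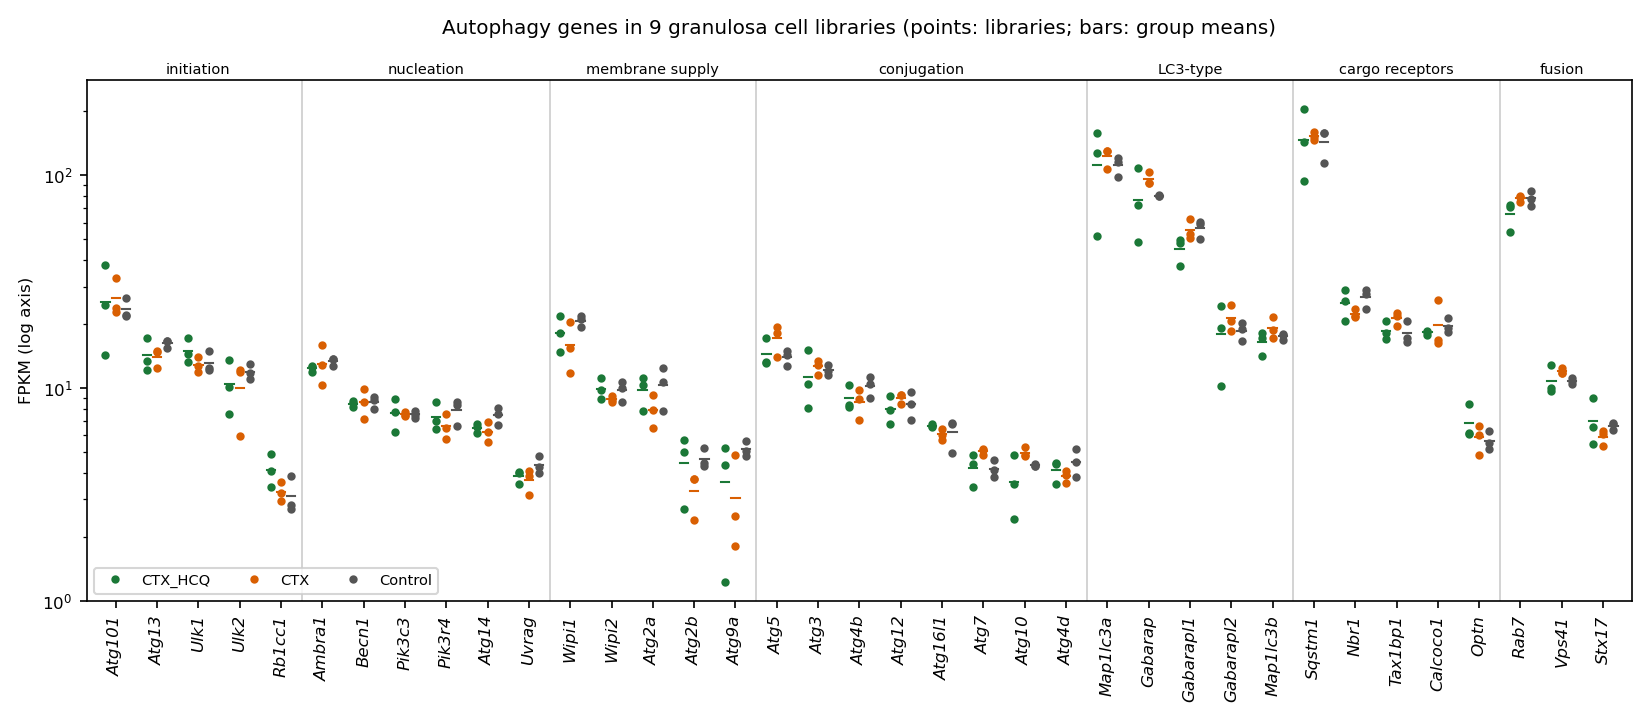
FPKM of the 37 autophagy genes on a log axis, grouped by role, with 1 point per library and a short bar at each group mean (CTX_HCQ green, CTX orange, Control grey, 3 libraries each). Sqstm1, 3 LC3-type genes and Rab7 stand far above the rest, and the widest spread between libraries is that of Atg9a, from 1.23 to 5.67 FPKM.

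The median SD of the members within groups was 0.18 on the log2(FPKM + 1) scale, against 0.30 over all 14431 tested genes and 0.28 over the 9446 tested genes in the same range of mean level. The ratio of the highest to the lowest library was under 2 for 28 members and at least 2 for 9. Atg9a had the widest ratio at 4.60, followed by Map1lc3a at 3.03 and Atg101 at 2.65. The lowest value of 14 members fell in CTX_HCQ 3 and that of 9 members in CTX 1, while Control 3 held the lowest value of 0 members. CTX_HCQ 3 also had the lowest sum of all FPKM, 246449. In bulk RNA, fewer cells of a type and less RNA per cell cannot be told apart.

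**Figure D2:**
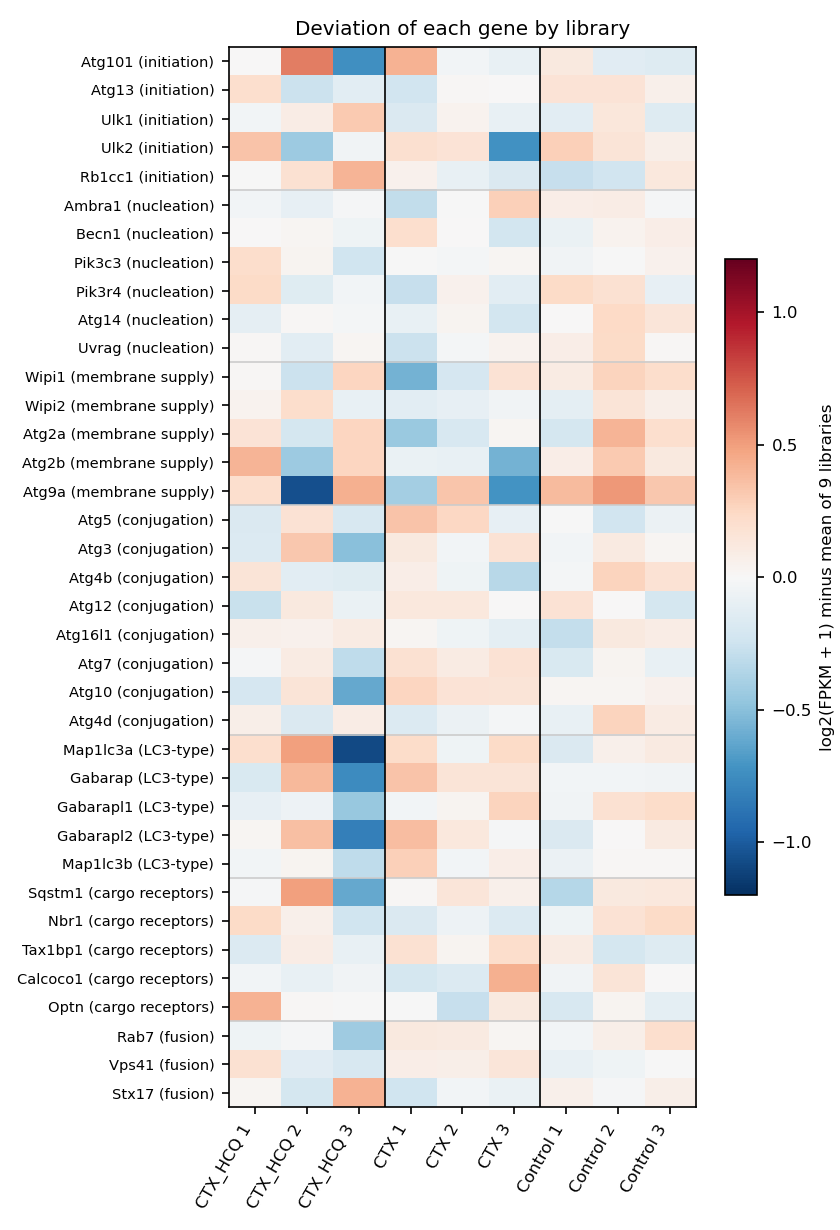
Deviation of each gene's log2(FPKM + 1) from its mean over 9 libraries, with libraries in columns and genes in rows by role; red is above the mean and blue below. CTX_HCQ 3 is blue across the 5 LC3-type genes, with a median deviation of -0.75, and Atg9a is blue in CTX_HCQ 2, CTX 1 and CTX 3.

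No autophagy gene passed the test between any groups. Differences were tested with limma on log2(FPKM + 1) over all 14431 genes, a scale that understates the change of low genes, with Benjamini-Hochberg adjustment and a threshold of 0.05. That test called 0 of 37 members and 0% of all genes in each of the 3 comparisons. The smallest adjusted p of a member was 0.653 in CTX against Control, 0.906 in CTX_HCQ against CTX and 1.0 in CTX_HCQ against Control. Limma-voom on whole reads, which were recovered within 0.02 of a read for 94.2% of tested genes, also called 0 members and 0 genes. At an unadjusted p under 0.05, limma gave 0 members in CTX against Control, where 7.8% of all genes reached it, 0 in CTX_HCQ against CTX, where 5.44% did, and 0 in CTX_HCQ against Control, where 2.16% did. Limma-voom gave 0 members in each as well.

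The 95% intervals bound how large a difference these libraries could hide. In CTX against Control, the interval of 36 of 37 members stayed within a log2 difference of 1 in either direction, with Atg9a as the exception (-1.52 to 0.17). In CTX_HCQ against CTX it did so for 35 members, the exceptions being Map1lc3a (-1.08 to 0.55) and Gabarap (-1.01 to 0.21). In CTX_HCQ against Control it did so for 36, Atg9a again being the exception (-1.39 to 0.29). The standard errors ran from 0.15 to 0.38 with a median of 0.18.

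Members whose groups of libraries did not overlap were counted out of 37, beside the share of all genes. These counts are not read as a trait of the members. In CTX, 4 members lay above every Control library (Atg7, Atg10, Gabarap and Vps41), a share to be read against 8.72% of all genes, and 4 lay below (Atg13, Atg2b, Nbr1 and Stx17), against 11% of all genes. In CTX_HCQ, 1 member lay above every CTX library (Atg16l1, against 3.45%) and 3 lay below (Atg7, Gabarapl1 and Rab7, against 4.57%). Against Control, CTX_HCQ had 0 members above (3.25% of all genes) and 1 below (Gabarapl1, 3.06%). The median log2 difference of the 37 members was -0.020 in CTX against Control, 0.0025 in CTX_HCQ against CTX and -0.093 in CTX_HCQ against Control, where the medians over all tested genes were -0.0045, 0.013 and -0.011. With 1 library left out, the number of members without overlap ran from 8 to 17 in CTX against Control (17 without Control 1). It ran from 4 to 16 in CTX_HCQ against CTX (16 without CTX_HCQ 2) and from 1 to 7 in CTX_HCQ against Control (7 without Control 1 or CTX_HCQ 1). Leaving out a library cannot lower such a count, and the share of all genes in these fits is not given. In all, 17 members were higher and 20 lower in CTX than in Control, 19 were higher and 18 lower in CTX_HCQ than in CTX, and 11 were higher and 26 lower in CTX_HCQ than in Control. With the length trend removed, a correction per library for the drift with gene length described above, these counts were 20 higher and 17 lower, 12 higher and 25 lower, and 13 higher and 24 lower. Without CTX_HCQ 3, the member median against Control was -0.0044. Of 46 log2 differences of members tracked through each left-out library, 41 moved by over 1.5 times or changed sign in at least 1 such fit.

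**Figure D3:**
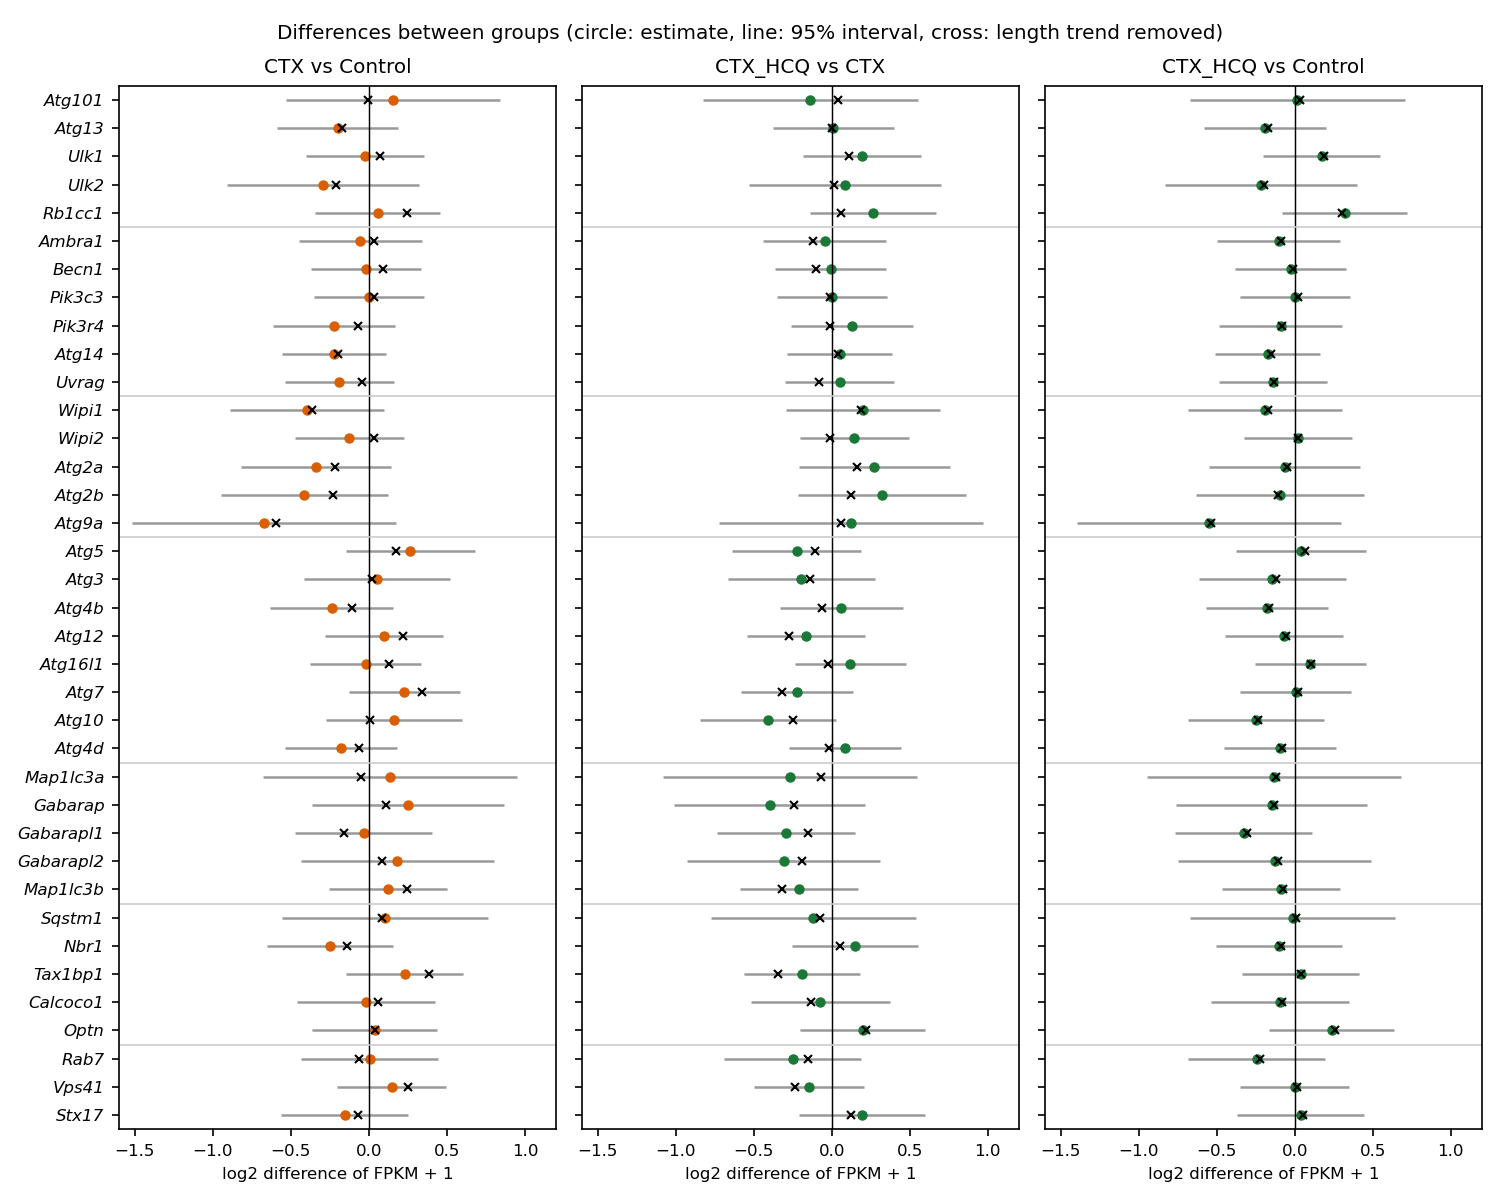
Log2 differences of FPKM + 1 for the 37 genes in the 3 comparisons, with the estimate as a circle, its 95% interval as a line and the estimate after removal of the length trend as a cross. Every interval contains 0, and the circles of the 5 membrane supply genes lie left of 0 in CTX against Control and right of 0 in CTX_HCQ against CTX, comparisons that share the CTX libraries.

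The initiation complex showed no difference past the test. It consists of the kinases Ulk1 and Ulk2, the adaptors Atg13 and Atg101 and the scaffold Rb1cc1, also known as FIP200. Levels of Ulk1 were 13.3, 14.5 and 17.1 FPKM in the CTX_HCQ libraries, 11.97, 14.02 and 12.7 FPKM in the CTX libraries and 12.4, 15.02 and 12.1 FPKM in the Control libraries. CTX_HCQ 3 was the highest, and all 3 groups overlapped. The log2 difference of Ulk1 was -0.024 (SE 0.17, 95% interval -0.40 to 0.35) in CTX against Control, 0.20 (SE 0.17, 95% interval -0.18 to 0.57) in CTX_HCQ against CTX and 0.17 (SE 0.17, 95% interval -0.21 to 0.55) in CTX_HCQ against Control. Rb1cc1, the member with the smallest p in CTX_HCQ against Control, had 3.44, 4.06 and 4.898 FPKM in the CTX_HCQ libraries, 3.63, 3.198 and 2.94 FPKM in the CTX libraries and 2.69, 2.81 and 3.85 FPKM in the Control libraries. The CTX_HCQ values reached highest, yet CTX_HCQ 1 overlapped with Control 3 and CTX 1. Its log2 difference was 0.32 (SE 0.18, 95% interval -0.083 to 0.72) against Control (adjusted p = 1.0) and 0.26 (SE 0.18, 95% interval -0.14 to 0.67) against CTX (adjusted p = 0.906). Of the other members, Atg13 stood lower in all CTX libraries, at 12.5 to 14.9 FPKM, than in all Control libraries, at 15.4 to 16.7 FPKM, with a log2 difference of -0.20 (SE 0.17, 95% interval -0.59 to 0.19). Ulk2 ran from 5.94 FPKM in CTX 3 to 13.6 FPKM in CTX_HCQ 1, and Atg101 from 14.3 FPKM in CTX_HCQ 3 to 37.8 FPKM in CTX_HCQ 2, so both varied more within CTX or CTX_HCQ than between the group means. Over the 5 genes, 2 were higher and 3 lower in CTX than in Control, 4 higher and 1 lower in CTX_HCQ than in CTX, and 3 higher and 2 lower in CTX_HCQ than in Control. Without CTX_HCQ 1 the counts were 2 higher and 3 lower both against CTX (median -0.11, against 0.082 with all libraries) and against Control.

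The nucleation complex had the smallest spread within groups of any role. Pik3c3 (Vps34) is the lipid kinase, Pik3r4 (Vps15) its regulatory subunit and Becn1 the scaffold on which Atg14 or Uvrag sets the site of action, while Ambra1 regulates Becn1. The median SD within groups of these 6 genes was 0.13 on the log2 scale. Becn1 stood at 8.53, 8.66 and 8.19 FPKM in the CTX_HCQ libraries, 9.95, 8.59 and 7.16 FPKM in the CTX libraries and 8.01, 8.83 and 9.07 FPKM in the Control libraries. The group means were 8.46 ± 0.243 FPKM in CTX_HCQ, 8.57 ± 1.397 FPKM in CTX and 8.64 ± 0.552 FPKM in Control, and all values of CTX_HCQ and of Control fell inside the range of CTX. Becn1 differed by log2 -0.019 (SE 0.16, 95% interval -0.37 to 0.34) in CTX against Control, -0.0062 (SE 0.16, 95% interval -0.36 to 0.35) in CTX_HCQ against CTX and -0.025 (SE 0.16, 95% interval -0.38 to 0.33) in CTX_HCQ against Control, and its sign changed with the scaling between libraries. In the annotation 3104 exon bases of Becn1 are shared with Cntd1 on the other strand, which stayed at or below 0.324 FPKM. Pik3c3 averaged 7.61 ± 1.31 FPKM in CTX_HCQ, 7.52 ± 0.154 FPKM in CTX and 7.52 ± 0.273 FPKM in Control. Atg14 averaged 6.48 ± 0.322 FPKM in CTX_HCQ, 6.25 ± 0.652 FPKM in CTX and 7.45 ± 0.693 FPKM in Control, with a log2 difference of -0.22 (SE 0.15, 95% interval -0.56 to 0.11) in CTX against Control (adjusted p = 0.677). In CTX against Control, 1 of the 6 genes was higher and 5 were lower with a median of -0.12, and after removal of the length trend 3 were higher and 3 lower with a median of -0.0063. In CTX_HCQ against CTX, 4 were higher and 2 lower, and after removal of the length trend 1 was higher and 5 were lower. For 0 of the 6 genes were CTX and Control free of overlap, where 8.72% of all genes lay wholly higher and 11% wholly lower in CTX.

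Membrane supply held the members with the lowest p in CTX against Control. Atg9a is the membrane-spanning scramblase that seeds the autophagosome, Atg2a and Atg2b transfer lipids into it, and Wipi1 and Wipi2 bind the phospholipid made by Pik3c3. All 5 were lower in CTX than in Control, with a median log2 difference of -0.39 (median of all genes -0.0045) and none past the test. All 5 were higher in CTX_HCQ than in CTX, with a median of 0.20, a comparison that shares the CTX libraries, and 4 were higher and 1 lower there without CTX 3 or without CTX_HCQ 1. Of the 5, 1 was higher and 4 were lower in CTX_HCQ than in Control, with a median of -0.094. Without CTX 1 the median was -0.22 in CTX against Control and 0.13 in CTX_HCQ against CTX, and without CTX_HCQ 2 it was 0.41 in CTX_HCQ against CTX. In CTX_HCQ against Control it ran from -0.24 without Control 1 to -0.022 without Control 2.

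Atg9a had 4.34, 1.23 and 5.24 FPKM in the CTX_HCQ libraries, 2.497, 4.85 and 1.82 FPKM in the CTX libraries and 5.05, 5.67 and 4.79 FPKM in the Control libraries. The low values are those of CTX_HCQ 2, CTX 3 and CTX 1, and CTX 2 lies among the Control libraries, so the groups overlapped. Its log2 difference was -0.67 (SE 0.38, 95% interval -1.52 to 0.17) in CTX against Control (adjusted p = 0.653) and -0.55 (SE 0.38, 95% interval -1.39 to 0.29) in CTX_HCQ against Control (adjusted p = 1.0). With 1 library left out, Atg9a ran from -0.97 without CTX 2 to -0.45 without CTX 3 in the first comparison and from -0.83 without CTX_HCQ 3 to -0.093 without CTX_HCQ 2 in the second. Reads behind these values numbered 415, 124 and 463 in CTX_HCQ 1, 2 and 3, 242, 475 and 172 in CTX 1, 2 and 3, and 494, 586 and 455 in Control 1, 2 and 3. The annotation shares 1832 of its exon bases with Gm29253 on the same strand, which is listed at 0 in all libraries. Levels of Wipi1 were 18.2, 14.9 and 21.7 FPKM in the CTX_HCQ libraries, 11.8, 15.5 and 20.5 FPKM in the CTX libraries and 19.4, 21.9 and 21.1 FPKM in the Control libraries. CTX 3 lay within the Control range, while CTX 1 and CTX 2 lay below it. Atg2b stood at 5.69, 2.704 and 4.998 FPKM in the CTX_HCQ libraries, 3.75, 3.73 and 2.398 FPKM in the CTX libraries and 4.29, 5.24 and 4.46 FPKM in the Control libraries. All CTX values lay below all Control values, and CTX_HCQ 2 fell among the CTX values. Atg2a had 10.4, 7.800 and 11.1 FPKM in the CTX_HCQ libraries, 6.47, 7.91 and 9.32 FPKM in the CTX libraries and 7.796, 12.5 and 10.7 FPKM in the Control libraries. CTX 2 and CTX 3 lay inside the Control range, and CTX 1 lay below it. The log2 differences in CTX against Control were -0.39 (SE 0.22, 95% interval -0.89 to 0.10) for Wipi1 (adjusted p = 0.653), -0.41 (SE 0.24, 95% interval -0.95 to 0.12) for Atg2b (adjusted p = 0.653) and -0.34 (SE 0.22, 95% interval -0.82 to 0.14) for Atg2a (adjusted p = 0.666).

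The 3 libraries with low Atg9a were those with the highest values of the short-minus-long measure, 0.32 in CTX_HCQ 2, 0.37 in CTX 3 and 0.23 in CTX 1, and the 5 membrane supply genes have exons of 4410 to 13456 bases. With the length trend removed, 1 of the 5 was higher and 4 were lower in CTX than in Control with a median of -0.23, and Atg9a had a log2 difference of -0.60. In CTX_HCQ against CTX, 4 were then higher and 1 lower, with a median of 0.13. The part of the length trend in the remaining difference was not tested. In CTX against Control, single members reached an unadjusted p under 0.05 when 1 library was left out: Atg2a without Control 1, Atg9a without CTX 2, Wipi1 without CTX 3, and both Atg2b and Atg9a without CTX_HCQ 2, which enters through the shared estimate of spread. The smallest adjusted p in those fits was 0.394. The share of all genes under 0.05 in those fits is not given.

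Conjugation held 2 of the 4 members that lay above all Control libraries in CTX, Atg7 and Atg10, where 8.72% of all genes did so. These counts are too small to be read as a trait of the role. Atg7 is the E1-like enzyme that activates both Atg12 and the LC3-type proteins, Atg3 and Atg10 are the E2-like enzymes, Atg5 joined to Atg12 works with Atg16l1 as the ligase, and Atg4b and Atg4d are proteases that trim the LC3-type proteins. Levels of Atg7 were 4.397, 4.83 and 3.42 FPKM in the CTX_HCQ libraries, 5.17, 4.84 and 5.14 FPKM in the CTX libraries and 3.805, 4.58 and 4.13 FPKM in the Control libraries. Every CTX value exceeded every Control value and every CTX_HCQ value, and CTX_HCQ overlapped with Control. The log2 difference of Atg7 was 0.23 (SE 0.16, 95% interval -0.13 to 0.58) in CTX against Control (adjusted p = 0.685), -0.22 (SE 0.16, 95% interval -0.58 to 0.13) in CTX_HCQ against CTX (adjusted p = 0.906) and 0.0054 (SE 0.16, 95% interval -0.35 to 0.36) in CTX_HCQ against Control. With the length trend removed it was 0.34 in CTX against Control and -0.32 in CTX_HCQ against CTX. Atg10 stood at 3.55, 4.83 and 2.43 FPKM in the CTX_HCQ libraries, 5.26, 4.86 and 4.82 FPKM in the CTX libraries and 4.32, 4.31 and 4.41 FPKM in the Control libraries. CTX stood above Control throughout, and CTX_HCQ 2 lay at the CTX level while CTX_HCQ 3 had the lowest value. The log2 difference of Atg10 in CTX_HCQ against CTX was -0.41 (SE 0.20, 95% interval -0.85 to 0.025), with the smallest p of any member in that comparison (adjusted p = 0.906). It was -0.60 without CTX_HCQ 2 and -0.22 without CTX_HCQ 3. Without CTX_HCQ 2, Atg10, Atg3, Atg2b and Gabarap reached an unadjusted p under 0.05 in that comparison, with a smallest adjusted p of 0.198. The share of all genes that did so in that fit is not given.

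Atg5 had 13.3, 17.1 and 13.1 FPKM in the CTX_HCQ libraries, 19.4, 18.1 and 13.98 FPKM in the CTX libraries and 15.00, 12.7 and 14.3 FPKM in the Control libraries. CTX 1 and CTX 2 were the highest, and CTX 3 lay within the Control range. Atg5 differed by log2 0.26 (SE 0.19, 95% interval -0.15 to 0.68) in CTX against Control (adjusted p = 0.685), -0.22 (SE 0.19, 95% interval -0.64 to 0.19) in CTX_HCQ against CTX and 0.040 (SE 0.19, 95% interval -0.37 to 0.45) in CTX_HCQ against Control. Levels of Atg16l1 were 6.61, 6.56 and 6.796 FPKM in the CTX_HCQ libraries, 6.42, 6.04 and 5.704 FPKM in the CTX libraries and 4.97, 6.87 and 6.77 FPKM in the Control libraries. The CTX_HCQ libraries lay closely together and above all CTX libraries, inside the Control range, with a log2 difference of 0.12 (SE 0.16, 95% interval -0.24 to 0.47) against CTX and 0.10 (SE 0.16, 95% interval -0.26 to 0.45) against Control. Atg3 ran from 8.08 FPKM in CTX_HCQ 3 to 15.1 FPKM in CTX_HCQ 2, wider within that group than across the others. Atg12 averaged 7.96 ± 1.19 FPKM in CTX_HCQ, 8.98 ± 0.472 FPKM in CTX and 8.39 ± 1.26 FPKM in Control, and Atg4b averaged 8.96 ± 1.22 FPKM in CTX_HCQ, 8.56 ± 1.35 FPKM in CTX and 10.2 ± 1.15 FPKM in Control. Atg4d averaged 4.14 ± 0.506 FPKM in CTX_HCQ, 3.84 ± 0.244 FPKM in CTX and 4.500 ± 0.679 FPKM in Control, and 1405 of its exon bases are shared with Kri1 on the other strand, which reached 4.55 FPKM, so their reads cannot be told apart without strand. Of the 8 genes, 5 were higher and 3 lower in CTX than in Control (median 0.074), and 3 were higher and 5 lower in CTX_HCQ both against CTX (median -0.18) and against Control (median -0.081). With the length trend removed, 0 were higher and 8 lower in CTX_HCQ against CTX (median -0.12), while 6 were higher and 2 lower in CTX against Control.

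Promoters were examined for the E-box CACGTG, the core of the element bound by Tfeb, a factor that switches on autophagy and lysosome genes. Windows from 250 bases before to 50 after an annotated start of the gene, from RefSeq on GRCm38.p6, were at hand for 31 of the 37 members. There were 32851 windows for 27025 genes, and a gene counted as a carrier if any of its windows held the motif. The motif, searched as CACGTG, which reads alike on both strands, was in 4 of these 31 (12.9%), against 8.09% of 27025 genes with a window. The carriers were Atg14, Atg3, Atg5 and Atg7, of which 3 belong to the conjugation steps just described. The longer TCACGTGA, which contains the shorter motif and is also its own reverse complement, was in Atg3 alone (3.23% of members, 1.12% of all genes). A match describes the sequence and shows no binding. The 80 bases around 1 match in each gene are given 5′ to 3′ on the strand of the gene, with the motif in capitals, to show where in the promoter it lies.
Atg7: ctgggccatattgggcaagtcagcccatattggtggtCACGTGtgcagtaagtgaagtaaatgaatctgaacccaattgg
Atg5: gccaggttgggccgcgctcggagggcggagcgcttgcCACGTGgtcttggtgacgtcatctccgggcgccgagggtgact
Atg14: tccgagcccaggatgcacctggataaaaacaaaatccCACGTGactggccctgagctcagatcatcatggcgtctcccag
Atg3: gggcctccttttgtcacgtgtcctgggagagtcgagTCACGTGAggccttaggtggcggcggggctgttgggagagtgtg

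Counted from the annotated start that the window belongs to, CACGTG begins at position -132 in Atg7, -14 in Atg5 and -1 in Atg14. In Atg3 it begins at both -94 and -71. The line for Atg3 has the longer TCACGTGA around the match at -71 in capitals, and the match at -94 stands in it in lower case. A gene can have more than 1 annotated start. Bases just after the start were found in a GENCODE transcript on the same strand for Atg7, Atg14 and Atg3, but not for Atg5. In coordinates of GRCm38.p6 the windows are chr6:114670927-114671006 on the plus strand for Atg7, chr10:44268288-44268367 on the plus strand for Atg5, chr14:47568393-47568472 on the minus strand for Atg14 and chr16:45158721-45158800 on the plus strand for Atg3. The 4 carriers did not share a direction: in CTX against Control the log2 differences were 0.23 for Atg7, 0.26 for Atg5, 0.053 for Atg3 and -0.22 for Atg14. Tfeb itself averaged 3.07 ± 0.915 FPKM in CTX_HCQ, 2.03 ± 0.278 FPKM in CTX and 2.85 ± 0.637 FPKM in Control.

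The LC3-type proteins are the ubiquitin-like tags of the autophagosome, Map1lc3a and Map1lc3b of the LC3 branch and Gabarap, Gabarapl1 and Gabarapl2 of the other. All 5 were lower in CTX_HCQ than in CTX, with a median log2 difference of -0.29, and lower in CTX_HCQ than in Control, with a median of -0.13, and none passed the test. In CTX, 4 were higher and 1 was lower than in Control, with a median of 0.14. Both counts in CTX_HCQ turned on 1 library. Without CTX_HCQ 3, 2 were higher and 3 lower than in CTX (median -0.11), and 4 were higher and 1 lower than in Control (median 0.14). Without CTX_HCQ 2 all 5 were lower in CTX_HCQ in both comparisons, with medians of -0.56 against CTX and -0.40 against Control.

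Map1lc3a stood at 128, 158 and 51.9 FPKM in the CTX_HCQ libraries, 130.0, 108 and 131 FPKM in the CTX libraries and 98.8, 116 and 120.4 FPKM in the Control libraries. The lowest value, in CTX_HCQ 3, and the highest, in CTX_HCQ 2, are of the same group, which therefore spans both others. The log2 difference of Map1lc3a was 0.14 (SE 0.37, 95% interval -0.68 to 0.95) in CTX against Control, -0.27 (SE 0.37, 95% interval -1.08 to 0.55) in CTX_HCQ against CTX and -0.13 (SE 0.37, 95% interval -0.94 to 0.68) in CTX_HCQ against Control, and without CTX_HCQ 3 the last was 0.35. Map1lc3b had 17.2, 18.1 and 14.1 FPKM in the CTX_HCQ libraries, 21.7, 17.3 and 18.7 FPKM in the CTX libraries and 16.8, 17.9 and 17.9 FPKM in the Control libraries. The CTX_HCQ libraries reached no higher than 18.1 FPKM and overlapped with both other groups. Map1lc3b differed by log2 0.12 (SE 0.17, 95% interval -0.26 to 0.50) in CTX against Control, -0.21 (SE 0.17, 95% interval -0.59 to 0.17) in CTX_HCQ against CTX and -0.089 (SE 0.17, 95% interval -0.47 to 0.29) in CTX_HCQ against Control. Levels of Gabarapl1 were 48.2, 49.5 and 37.4 FPKM in the CTX_HCQ libraries, 50.6, 52.8 and 62.4 FPKM in the CTX libraries and 50.1, 58.9 and 60.7 FPKM in the Control libraries. Each CTX_HCQ value lay below each CTX and each Control value, and the gap between CTX_HCQ 2 and the nearest other libraries was small. The log2 difference of Gabarapl1 was -0.29 (SE 0.20, 95% interval -0.74 to 0.15) against CTX (adjusted p = 0.906) and -0.33 (SE 0.20, 95% interval -0.77 to 0.11) against Control (adjusted p = 1.0), and -0.034 (SE 0.20, 95% interval -0.48 to 0.41) in CTX against Control.

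Gabarap stood at 72.2, 108 and 48.4 FPKM in the CTX_HCQ libraries, 104, 91.7 and 91.7 FPKM in the CTX libraries and 80.6, 80.5 and 79.8 FPKM in the Control libraries. The Control libraries were nearly equal and all below CTX, and CTX_HCQ spanned both. Gabarap differed by log2 0.25 (SE 0.28, 95% interval -0.36 to 0.86) in CTX against Control and -0.40 (SE 0.28, 95% interval -1.01 to 0.21) in CTX_HCQ against CTX (adjusted p = 0.906), where it was -0.69 without CTX_HCQ 2 and -0.11 without CTX_HCQ 3. Gabarapl2 ran from 10.2 FPKM in CTX_HCQ 3 to 24.6 FPKM in CTX 1, and averaged 17.9 ± 7.13 FPKM in CTX_HCQ, 21.3 ± 3.08 FPKM in CTX and 18.6 ± 1.895 FPKM in Control. Summed over the 5 genes, LC3-type transcripts came to 285, 358 and 162 FPKM in CTX_HCQ 1, 2 and 3, against 331, 290.2 and 322 FPKM in CTX and 263, 292 and 299 FPKM in Control. The sum was 268 ± 98.9 FPKM in CTX_HCQ, 315 ± 21.5 FPKM in CTX and 285 ± 19.2 FPKM in Control (SD, n = 3 each). Map1lc3a gave 32.0% of that sum in CTX_HCQ 3 and 37.1% to 44.9% in the other 8 libraries. Of the LC3 branch, Map1lc3a made up 78.6% to 89.7%, lowest in CTX_HCQ 3. These shares are of FPKM and rest on exon lengths of 1181 bases for Map1lc3a and 7517 bases for Map1lc3b. In reads, Map1lc3a and Map1lc3b stood at 2458 and 2409 in Control 2, 3252 and 2382 in CTX_HCQ 2, and 941 and 1628 in CTX_HCQ 3.

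The library with the lowest LC3-type levels was also the one with the lowest short-minus-long measure, -0.40 in CTX_HCQ 3, and the exons of 4 of these genes are short, 1181 to 2325 bases. Map1lc3b, at 7517 bases, was the exception, and at 14.1 FPKM in CTX_HCQ 3 it too had its lowest value there. With the length trend removed, all 5 were lower in CTX_HCQ than in CTX (median -0.19) and than in Control (median -0.12), while 3 were higher and 2 lower in CTX than in Control. Depth was also lowest in CTX_HCQ 3, at 13529098 recovered reads, against 16081880 to 17307063 in the others. The library size implied by its FPKM was 15344567, against 16423661 to 17943320 in the others. That size is not a count of these reads, since in CTX 1 the recovered reads (16906345) exceeded it (16820936). All FPKM summed to 246449 in CTX_HCQ 3 and to 288395 to 378232 in the others. The part of depth, of the scaling and of what remains of the length trend in the low values of CTX_HCQ 3 was not tested.

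**Figure D4:**
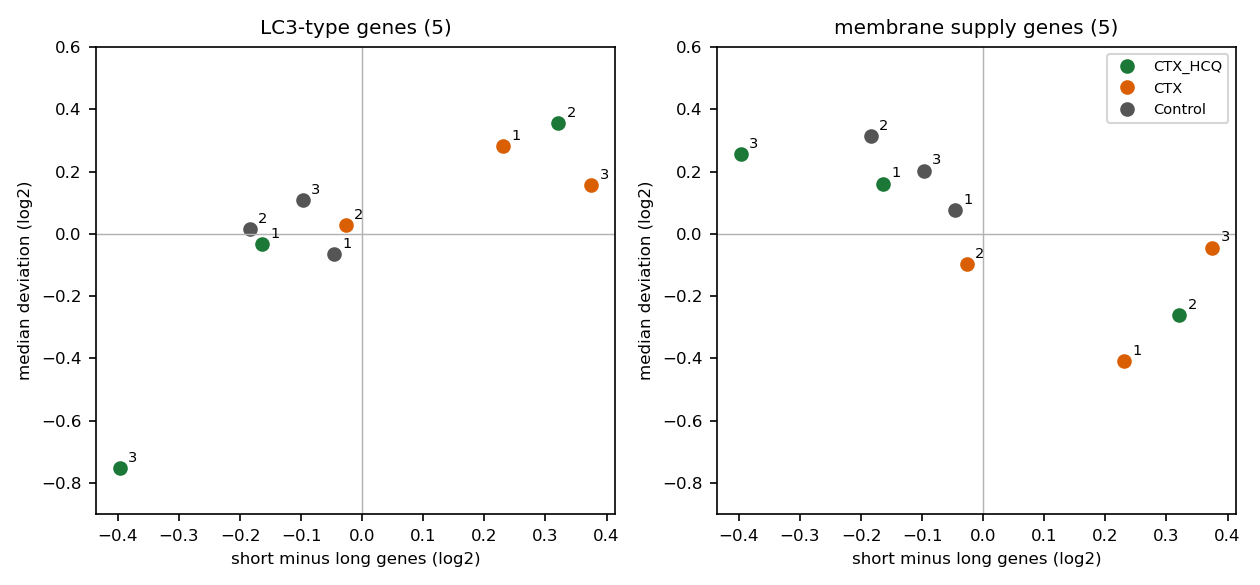
Median deviation of the 5 LC3-type genes (left) and of the 5 membrane supply genes (right) in each library against the short-minus-long measure of that library, both on the log2 scale, with points numbered by library (CTX_HCQ green, CTX orange, Control grey). CTX_HCQ 3, at -0.40, has the lowest LC3-type median, -0.75, and CTX_HCQ 2, CTX 1 and CTX 3, at 0.23 and above, have the 3 highest LC3-type medians and negative membrane supply medians.

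Cargo receptors link ubiquitinated or damaged cargo to LC3-type proteins, and the protein of Sqstm1 builds up when lysosomal degradation is blocked. Sqstm1 had 144, 205 and 94.5 FPKM in the CTX_HCQ libraries, 146, 160.2 and 152 FPKM in the CTX libraries and 114, 158 and 159 FPKM in the Control libraries. The CTX_HCQ libraries held both the lowest and the highest value of all 9, so their range enclosed the other groups. Sqstm1 differed by log2 0.10 (SE 0.30, 95% interval -0.55 to 0.76) in CTX against Control, -0.12 (SE 0.30, 95% interval -0.78 to 0.54) in CTX_HCQ against CTX and -0.014 (SE 0.30, 95% interval -0.67 to 0.64) in CTX_HCQ against Control, and the sign of each turned with the scaling or with 1 library. Sqstm1 made up 59.9% to 74.4% of the FPKM of the 5 receptors. Of its exon bases, 580 are shared with Mrnip on the other strand, which reached 2.90 FPKM.

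Levels of Nbr1 were 28.9, 25.6 and 20.6 FPKM in the CTX_HCQ libraries, 21.6, 23.5 and 21.8 FPKM in the CTX libraries and 23.6, 27.8 and 28.9 FPKM in the Control libraries. Nbr1, a receptor related to Sqstm1, was lower in every CTX library than in any Control library, and CTX_HCQ overlapped with both. Its log2 difference was -0.25 (SE 0.18, 95% interval -0.65 to 0.16) in CTX against Control (adjusted p = 0.688), 0.15 (SE 0.18, 95% interval -0.26 to 0.55) in CTX_HCQ against CTX and -0.10 (SE 0.18, 95% interval -0.50 to 0.30) in CTX_HCQ against Control. Optn stood at 8.45, 6.16 and 6.06 FPKM in the CTX_HCQ libraries, 6.05, 4.86 and 6.67 FPKM in the CTX libraries and 5.18, 6.25 and 5.53 FPKM in the Control libraries. Optn, a receptor in the removal of mitochondria and bacteria, was highest in CTX_HCQ 1, while CTX_HCQ 2 and CTX_HCQ 3 lay among the other groups. Its log2 difference was 0.038 (SE 0.18, 95% interval -0.36 to 0.44) in CTX against Control, 0.20 (SE 0.18, 95% interval -0.20 to 0.60) in CTX_HCQ against CTX and 0.24 (SE 0.18, 95% interval -0.17 to 0.64) in CTX_HCQ against Control (adjusted p = 1.0). Tax1bp1 had 17.1, 20.6 and 18.1 FPKM in the CTX_HCQ libraries, 21.9, 19.7 and 22.4 FPKM in the CTX libraries and 20.7, 16.5 and 17.2 FPKM in the Control libraries. Tax1bp1, a ubiquitin-binding receptor, reached its 2 highest values in CTX 3 and CTX 1, and its groups overlapped through Control 1, with a log2 difference of 0.23 (SE 0.17, 95% interval -0.14 to 0.60) in CTX against Control (adjusted p = 0.689). Calcoco1 averaged 18.3 ± 0.402 FPKM in CTX_HCQ, 19.7 ± 5.44 FPKM in CTX and 19.6 ± 1.48 FPKM in Control. Of the 5 receptors, 3 were higher and 2 lower in CTX than in Control, and 2 were higher and 3 lower in CTX_HCQ both against CTX and against Control, the last count being 3 higher and 2 lower with the length trend removed.

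Fusion with the lysosome was represented by the SNARE gene Stx17, Vps41 of the HOPS tethering complex and Rab7. Levels of Vps41 were 12.8, 10.1 and 9.67 FPKM in the CTX_HCQ libraries, 11.8, 11.8 and 12.4 FPKM in the CTX libraries and 10.5, 10.7 and 11.1 FPKM in the Control libraries. Each CTX value lay above each Control value, and CTX_HCQ spanned both, with a log2 difference of 0.15 (SE 0.16, 95% interval -0.21 to 0.50) in CTX against Control (adjusted p = 0.768). Rab7 stood at 71.2, 72.8 and 54.4 FPKM in the CTX_HCQ libraries, 80.2, 79.5 and 75.03 FPKM in the CTX libraries and 71.98, 77.5 and 84.6 FPKM in the Control libraries. The CTX_HCQ libraries lay below all CTX libraries, and CTX_HCQ 2 overlapped with Control 1. On the log2 scale Rab7 differed by -0.25 (SE 0.20, 95% interval -0.69 to 0.19) in CTX_HCQ against CTX (adjusted p = 0.906) and -0.24 (SE 0.20, 95% interval -0.68 to 0.19) in CTX_HCQ against Control (adjusted p = 1.0). The processed copy Rab7-ps1 was listed at up to 7.80 FPKM, and reads may be divided between it and Rab7. Stx17 had 6.56, 5.46 and 8.99 FPKM in the CTX_HCQ libraries, 5.34, 6.28 and 6.08 FPKM in the CTX libraries and 6.81, 6.38 and 6.83 FPKM in the Control libraries. All CTX libraries lay below all Control libraries, and CTX_HCQ 3 had the highest value of all 9, with a log2 difference of -0.15 (SE 0.18, 95% interval -0.56 to 0.25) in CTX against Control.

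Of 30 further autophagy genes, 27 passed the filter on low values, while Atg9b, Calcoco2 and Ccpg1 did not. Of the 27, 17 were higher and 10 lower in CTX than in Control, 14 were higher and 13 lower in CTX_HCQ than in CTX, and 10 were higher and 17 lower in CTX_HCQ than in Control, with 0 past the adjusted threshold in each. Epg5, which tethers autophagosomes to late endosomes, averaged 4.39 ± 1.48 FPKM in CTX_HCQ, 3.59 ± 0.663 FPKM in CTX and 5.54 ± 0.287 FPKM in Control. Its log2 difference was -0.52 (SE 0.21, 95% interval -0.99 to -0.058) in CTX against Control (adjusted p = 0.639), and -0.37 with the length trend removed. It was the only one of the 27 with an unadjusted limma p under 0.05 there, where 7.8% of all genes had one. The HOPS gene Vps33a averaged 9.26 ± 2.68 FPKM in CTX_HCQ, 8.59 ± 1.37 FPKM in CTX and 12.4 ± 1.84 FPKM in Control, with a log2 difference of -0.48 (SE 0.22, 95% interval -0.97 to 0.0012) in the same comparison (adjusted p = 0.6398). Tollip, a ubiquitin-binding adaptor, averaged 14.8 ± 2.44 FPKM in CTX_HCQ, 23.1 ± 8.59 FPKM in CTX and 17.5 ± 4.32 FPKM in Control, with a log2 difference of -0.55 (SE 0.30, 95% interval -1.21 to 0.11) in CTX_HCQ against CTX. Atg4a, a protease of the Atg4 family, differed by -0.28 in CTX_HCQ against CTX and Ulk3 by 0.26 on the log2 scale.

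The 25 genes of nutrient sensing and transcriptional control of autophagy all passed the filter. Of these, 5 were higher and 20 lower in CTX than in Control, with a median of -0.18, 17 were higher and 8 lower in CTX_HCQ than in CTX, with a median of 0.17, and 9 were higher and 16 lower in CTX_HCQ than in Control, with a median of -0.052. With the length trend removed, the first count was 10 higher and 15 lower (median -0.073) and the second 15 higher and 10 lower (median 0.087). None passed the adjusted threshold. In CTX against Control, 2 of the 25 had an unadjusted limma p under 0.05, where 7.8% of all genes did. Mtor, the kinase that holds Ulk1 in check, averaged 9.32 ± 1.16 FPKM in CTX_HCQ, 7.801 ± 1.53 FPKM in CTX and 11.2 ± 0.812 FPKM in Control. Its log2 difference was -0.49 (SE 0.18, 95% interval -0.89 to -0.086) in CTX against Control (adjusted p = 0.639), and -0.33 with the length trend removed. Foxo3, a transcription factor of autophagy and follicle dormancy genes, averaged 13.7 ± 2.09 FPKM in CTX_HCQ, 10.9 ± 1.66 FPKM in CTX and 16.2 ± 3.45 FPKM in Control. Its log2 difference was -0.52 (SE 0.21, 95% interval -0.98 to -0.060) in the same comparison (adjusted p = 0.639), and -0.40 with the length trend removed. Prkag1, a subunit of the energy sensor AMPK, and Sesn1, a stress-induced regulator of mTORC1, had the smallest p among the genes that were higher in CTX than in Control, with log2 differences of 0.43 and 0.32. In CTX_HCQ against CTX, Ddit4, an inhibitor of mTORC1 induced by stress, had a log2 difference of 0.74 (SE 0.42, 95% interval -0.20 to 1.68) and Tfeb of 0.40 (SE 0.22, 95% interval -0.083 to 0.88), against -0.33 for Sesn1 and -0.27 for Nprl2 of the GATOR1 complex. In CTX_HCQ against Control, Foxo1, a transcription factor of the same family as Foxo3, had a log2 difference of 0.39 (SE 0.35, 95% interval -0.38 to 1.17) and Mtor of -0.25 (SE 0.18, 95% interval -0.65 to 0.15).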

How the data were processed

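The authors deposited 1 table of FPKM per gene for 9 libraries of polyadenylated RNA, and all 9 of its value columns were used. Per the submitters' processing notes, the build was GRCm39 (mm39) and the tools were DESeq2 1.20.0, featureCounts 1.5.0-p3, HISAT2 2.0.5 and fastp 0.23.2. Whether counting used strand is not stated in the labels. Exons of 13 members share bases with a gene on the other strand in GENCODE M21, so their reads cannot be told apart without strand, and those of Atg9a also with Gm29253 on the same strand. Symbols and exon lengths came from GENCODE M21, of another build, and matched 52073 of 56748 identifiers. Whole reads, recovered from FPKM and exon length within 0.02 of a read, came to 13529098 to 17307063 per library, and the library size implied by the FPKM was 15344567 to 17943320.

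Genes that reached 1 FPKM in 3 or more libraries were analysed as log2(FPKM + 1) in limma 3.58.1 (R 4.3.3), with 1 mean per group over all 9 libraries, a variance trend and Benjamini-Hochberg adjustment within each comparison at a threshold of 0.05. The length trend was removed per library as an alternative added after the data had been seen, as was leaving out CTX 3 and CTX_HCQ 3 together. The fit was tested on simulated data. Named members were 10 fixed genes and the 4 per direction with the smallest p in each comparison, and in the wider lists up to 2 per direction. The other members are described by level, range and overlap. The members and lists were chosen with earlier results of these data known. Replicate libraries differed beyond sampling noise, with a chi-square per degree of freedom of 15.4 to 162, so each counted as 1 sample.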

Additional observations from a re-analysis of the deposited data

How the results depend on the processing

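In all 20 alternatives no autophagy gene passed the adjusted threshold, the lowest adjusted p of a member being 0.0551 with library weights. All-gene calls stayed at 0 except with library weights, where 648 genes were called in CTX against Control and 1 in each other comparison, and with Control 1 left out. Leaving out 1 library gave 0 to 13 calls in CTX against Control and 0 to 10 in CTX_HCQ against CTX, the highest without Control 1. It gave 0 to 2, 0 to 4 and 0 to 1 members with an unadjusted p under 0.05 in CTX against Control, CTX_HCQ against CTX and CTX_HCQ against Control. Members without overlap then numbered 8 to 17 (17 without Control 1, 15 without CTX 2, 13 without CTX 3), 4 to 16 (16 without CTX_HCQ 2, 10 without CTX 3, 7 without CTX 2, CTX_HCQ 1 or CTX_HCQ 3) and 1 to 7 (7 without Control 1 or CTX_HCQ 1, 6 without CTX_HCQ 2 or CTX_HCQ 3, 4 without Control 3, 3 without Control 2). The member median ran from -0.068 to 0.038 in CTX_HCQ against CTX and from -0.14 to -0.0044 in CTX_HCQ against Control. Library weights gave 8, 7 and 3 members with an unadjusted p under 0.05 and a median of 0.072 in CTX_HCQ against CTX. A fit of only the compared groups gave 1, Atg9a, in CTX against Control. Rescaling without mitochondrial genes gave medians of -0.078 in CTX against Control and 0.099 in CTX_HCQ against CTX, where it moved the median of all genes to -0.058 and 0.11, and 3 members without overlap in CTX_HCQ against Control. Quantile normalization gave 1 and 2 members without overlap in CTX_HCQ against CTX and against Control. Voom gave a median of 0.060 in CTX_HCQ against CTX. Removal of the length trend gave -0.060 there, and 2, 1 and 3 members without overlap. Without CTX 3 and CTX_HCQ 3, 2 members (Atg5 and Wipi1) had an unadjusted p under 0.05 in CTX against Control, medians were 0.070 in CTX_HCQ against CTX and -0.0044 in CTX_HCQ against Control, and 13, 12 and 6 members did not overlap. The cause of these shifts was not tested. The share of all genes without overlap, or with an unadjusted p under 0.05, is not given for these alternatives. The counts of members there thus have no background and are not read as a trait of these genes.

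Of 46 named differences over these settings, 59 values changed sign and 850 did not. None of those differences was past the test. In CTX against Control, Becn1 was 0.033 with quantile normalization, 0.021 with library weights, 0.093 without the length trend and 0.091 without CTX 3 and CTX_HCQ 3. Sqstm1 was -0.080 with quantile normalization and -0.0076 with weights, Optn -0.019 on rescaling without mitochondrial genes, -0.066 with weights and -0.047 without CTX 3 and CTX_HCQ 3, and, without the length trend, Map1lc3a -0.051 and Ulk1 0.074. In CTX_HCQ against CTX, Sqstm1 was 0.13 with quantile normalization and 0.16 without both libraries, Becn1 0.094 on rescaling and 0.049 with voom, and Map1lc3a 0.024 with weights and 0.26 without both. In CTX_HCQ against Control, quantile normalization gave -0.016 for Atg7 and 0.053 for Sqstm1, rescaling 0.016 for Becn1 and 0.030 for Sqstm1, weights -0.0052 for Atg16l1, 0.073 for Map1lc3a, 0.0043 for Nbr1 and -0.0028 for Ulk1, voom 0.023 for Becn1 and 0.029 for Sqstm1, removal of the length trend 0.010 for Sqstm1, and leaving out both libraries 0.35 for Map1lc3a, 0.012 for Map1lc3b, 0.027 for Nbr1 and 0.27 for Sqstm1. With 1 library left out, values in CTX against Control ran from -0.12 to 0.091 for Becn1, -0.047 to 0.15 for Optn, -0.051 to 0.18 for Sqstm1, -0.081 to 0.067 for Ulk1 and -0.12 to 0.026 for Gabarapl1. In CTX_HCQ against CTX they ran from -0.12 to 0.097 for Becn1, -0.58 to 0.21 for Map1lc3a and -0.39 to 0.17 for Sqstm1. In CTX_HCQ against Control they ran from -0.030 to 0.17 for Atg16l1, -0.079 to 0.12 for Atg7, -0.078 to 0.10 for Atg5, -0.28 to 0.27 for Sqstm1, -0.073 to 0.0072 for Becn1, -0.44 to 0.35 for Map1lc3a, -0.16 to 0.012 for Map1lc3b and -0.21 to 0.027 for Nbr1.

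Pairing by replicate number was examined on each gene's deviation from its group mean. These deviations correlated between -0.46 and 0.14 for same-numbered libraries, and 0 of 9 libraries were closest to their own number. Such deviations cancel out within a group, so the values gave no sign of pairing but cannot exclude it. With the replicate number as a block, 0 members and 0 genes were called and the member medians were -0.020, 0.0025 and -0.093.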
